A study of Rattus norvegicus with 12 samples.

Results

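The genes described here are the nuclear genes of the mitochondrial respiratory chain and of the mitochondrial ribosome in the rat colon. They are those of a rule on names, which takes every probe whose gene name on the array begins with Nduf, Uqcr, Atp5, Cox4 to Cox8, Mrps or Mrpl followed by a letter or digit, together with Sdha, Sdhb, Sdhc and Sdhd. The rule found 161 genes, on 192 of the 30367 probes of the array: 88 genes named for the chain and 73 named for the ribosome. The array lists 26514 different names, among them identifiers of probes without a gene name. Of these genes 133 had 1 probe, 26 had 2, 1 had 3 and 1 had 4. On all 12 arrays 186 of the 192 probes, of 158 genes, were well above background, a mark that the scanner software sets for each spot. The probes of Ndufaf2 and Cox8c were well above background on no array, the only probe of Mrps28 on 2 arrays, and the second probes of Mrpl30 and Mrpl50 on 2 and of Atp5d on 1.

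Colonic RNA of 12 male Wistar rats was measured, 1 rat per array, at postnatal day 60, and every rat had undergone colorectal distension (CRD), the balloon test of visceral pain. Group C (rats C1 to C4) was normally handled, stayed with the dam, and received placebo, that is saline by gavage, from day 3 to day 60. Group M (M5 to M8) underwent neonatal maternal separation (NMS), 180 min daily from day 2 to day 14, a model of visceral hypersensitivity, and received the same placebo. Group D (D9 to D12) underwent the same NMS and received the probiotic mixture VSL#3 daily by gavage from day 3 to day 60. There was no group with VSL#3 and without NMS, and the litter of each rat is not given in the sources used here. Rat D12 stands apart in the values below. The methods of the study show 3 rats of Group D, so the comparisons are of 4, 4 and 3 rats, and the values of D12 are given beside them.

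The respiratory chain passes electrons from NADH (through complex I) or from succinate (through complex II) by way of complex III to complex IV, which reduces oxygen, and complex V uses the proton gradient so built to make ATP. Complex II is made of nuclear genes alone and is also an enzyme of the citric acid cycle, whereas the mitochondrial DNA encodes a few core subunits of the other complexes. The mitochondrial ribosome, with a small (Mrps) and a large (Mrpl) subunit of proteins imported from the cytosol, translates just those core subunits. In the colon, the oxidation of butyrate from the gut bacteria makes the surface epithelium rich in these enzymes. The nuclear genes of the chain are known to be controlled by the factors NRF-1, GABP (also called NRF-2), the oestrogen-related receptors (ERR) and YY1 with the coactivators of the PGC-1 family.

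Each value is the log2 ratio of a probe to the 75th percentile of its own array, so a value of 0 is that percentile and differences between groups are log2 differences of 1 probe. Levels of different probes cannot be set against each other. The 75th percentile itself lay between 1434 and 1950 signal units over the 12 arrays, between 75.5% and 77.5% of the spots were well above background, and no spot was saturated. The 8 arrays of Groups C and M lay on slide 1, with all of Group C in array row 1 and all of Group M in array row 2. The 4 arrays of Group D lay on slide 2, all in array row 1. Group D and slide 2 therefore cannot be told apart. Group M alone lay in array row 2, so its differences from Group C and from Group D cannot be told apart from that of the array rows. This holds also where Group M stood apart from all 8 other rats. Markers of the colon were present: all 12 epithelial and all 8 smooth muscle genes measured passed the background mark on all arrays. As the tissue was whole colon, fewer cells of a type and less RNA per cell cannot be told apart in any value below.

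The respiratory chain as a whole read lower in Group M than in Group C, and rats D9 to D11 lay between them in the mean. For each rat, the median over the 88 chain genes of its difference from the Group C mean was 0.073 in C1, -0.20 in C2, 0.093 in C3 and 0.052 in C4. In Group M, in the order of the rats, it was -0.24, -0.068, -0.35 and -0.24, and in Group D -0.062, 0.033, -0.16 and -0.49. Rats M5, M7 and M8 of Group M lay below all of Group C, while M6 lay above C2, so the groups overlapped, and D12 was the lowest rat of all. The group means were 0.0046 ± 0.14 (SD, n = 4) in Group C, -0.23 ± 0.12 (SD, n = 4) in Group M and -0.061 ± 0.094 (SD, n = 3) in Group D. For the 73 genes of the mitochondrial ribosome the same medians were smaller, -0.012 ± 0.070 (SD, n = 4) in Group C, -0.11 ± 0.074 (SD, n = 4) in Group M and -0.021 ± 0.038 (SD, n = 3) in Group D. Within each group the ribosome followed the order of the chain in its extremes: C2 was the lowest of Group C at -0.12, M6 the highest and M7 the lowest of Group M at -0.027 and -0.20, and D12 again the lowest of all at -0.26.

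The 5 rats with the lowest chain medians, C2, M5, M7, M8 and D12, were the 5 with the highest medians of leukocyte markers. The summed level of the 9 leukocyte genes measured (Ptprc, Cd3d, Cd3e, Cd79b, Ms4a1, Cd68, Csf1r, Itgam and Aif1), as a multiple of the 75th percentile, was 12.8 in C2 and 4.44 to 6.04 in the other Group C rats, 4.97 in M6 and 11.3 to 15.5 in the other Group M rats, and 21.5 in D12 and 3.99 to 5.23 in the other Group D rats. On all arrays 8 of the 9 genes passed the background mark, and Ms4a1, a B cell marker, did so on 8 arrays only. The groups overlapped in this sum as they did in the chain. The medians of the 9 genes, relative to Group C, were -0.76, 1.91, -0.76 and -0.19 in C1 to C4, 1.80, -0.72, 1.32 and 1.25 in M5 to M8, and -0.83, -0.17, -0.28 and 2.88 in D9 to D12. The summed epithelial level was 314 to 388 in Group C, 323 to 485 in Group M, 340 to 426 in D9 to D11 and 297 in D12. The part of leukocytes or epithelium in the differences of the chain was not tested.

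**Figure D1:**
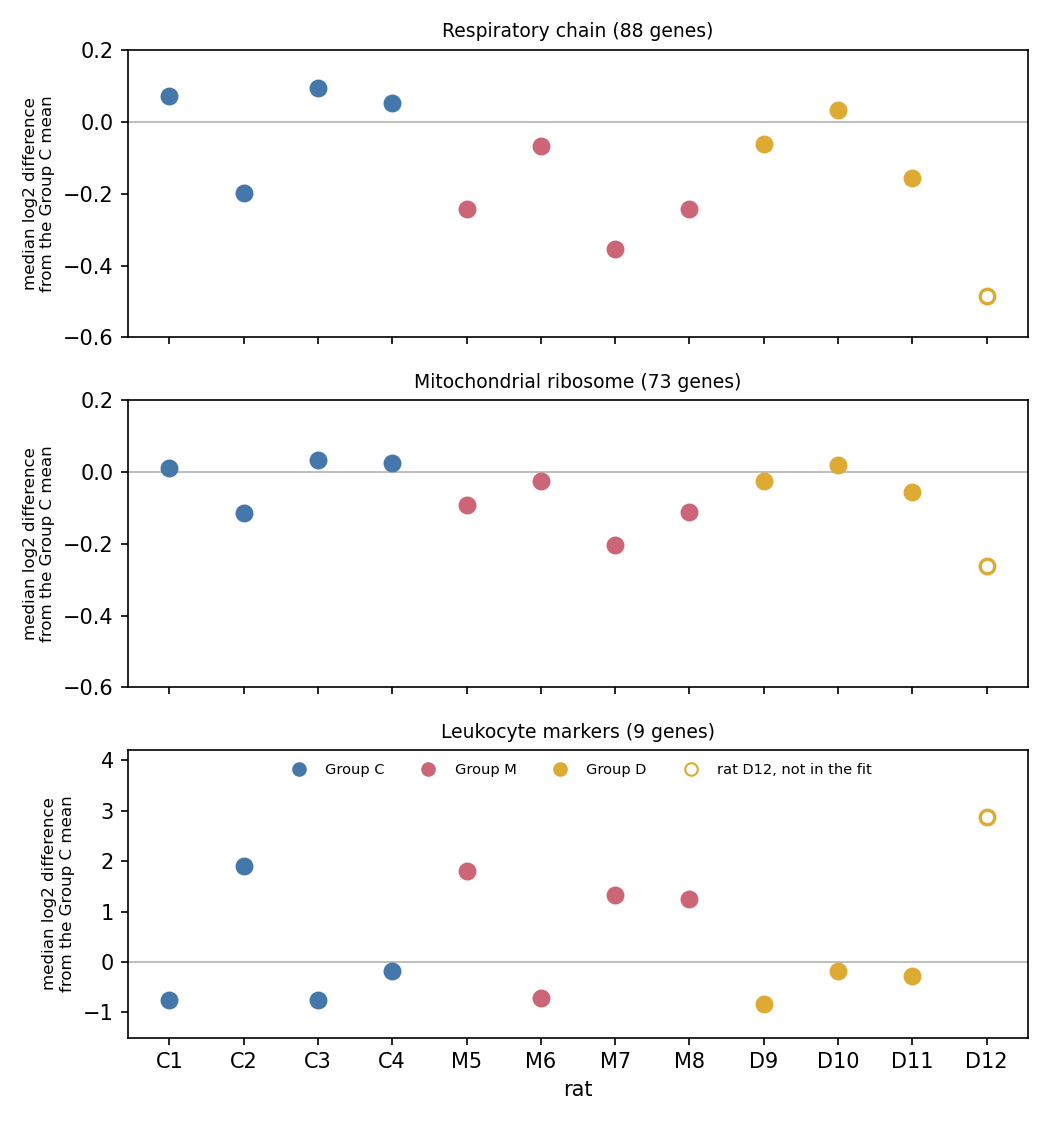
Median log2 difference from the Group C mean in each rat over the 88 respiratory chain genes (top), the 73 mitochondrial ribosome genes (middle) and the 9 leukocyte markers (bottom, wider axis); 1 point per rat, with rat D12 open. C2 and D12, at -0.20 and -0.49 in the chain, are low beside their group and high in leukocyte markers at 1.91 and 2.88, while M6 is the highest Group M rat in the chain at -0.068 and the lowest in leukocyte markers at -0.72.

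Measured gene by gene, a single member passed the adjusted threshold. By limma, with the p values adjusted over all 30367 probes, 1 of 192 probes was called at an adjusted p of at most 0.05 in Group M vs Group C (0.207% of all probes were), 1 (0.161%) in Group D vs Group M, and 0 in Group D vs Group C (0.00659%), and both calls were the probe of Mrps10. At a raw p of at most 0.05, that is before adjustment, 59 of the 192 probes were lower in Group M than in Group C and 13 higher, where 12.9% of all probes were lower and 9.86% higher. These 59 were 30.7% of the members and the 13 were 6.77%. In Group D vs Group M 5 probes were lower and 27 higher at this threshold (9.85% and 11.8% of all probes), and in Group D vs Group C 0 and 5 (2.83% and 3.15%). The 5 were 2 probes of Ndufaf4 and 1 each of Mrpl17, Mrps2 and Mrps21, named here with their values known. The comparisons share rats, with Group M entering the first with a plus sign and the second with a minus sign, so opposite signs in these 2 comparisons are no separate evidence.

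How many members were called depended on single rats. Without M6, 41 probes (21.4% of the members) passed the adjusted threshold in Group M vs Group C, 35 lower and 6 higher, beside 16.2% of all probes, and 19 in Group D vs Group M, beside 15% of all probes. With limma's array quality weights 82 members passed in Group M vs Group C (25.9% of all probes) and 38 in Group D vs Group M (21.6%). At the raw threshold the 59 lower and 13 higher probes of Group M vs Group C became 25 and 8 without M7, which is 17.2% of the members beside 15.5% of all probes in both directions. They became 32 and 9 without C1, 30 and 10 without C3, 36 and 8 without C4, and 36 and 9 without M8, which is 20.8% to 23.4% of the members beside 16.4% to 17.8% of all probes. In the other direction they became 93 and 12 without C2 (54.7% beside 26.2%) and 88 and 13 without M6 (52.6% beside 31.6%). The 5 lower and 27 higher probes of Group D vs Group M became 7 and 61 without M6 (35.4% of the members beside 30.4% of all probes), 4 and 14 without M7 (9.38% beside 16.1%), 5 and 17 without M8 (11.5% beside 15.8%), and 5 and 12 without D10 (8.85% beside 16.3%). With D12 in the model 40 were lower and 12 higher in Group M vs Group C (10.1% and 8.38% of all probes), 5 and 8 in Group D vs Group M (5.92% and 6.13%), and 5 and 6 in Group D vs Group C (3.78% and 3%). The methods of the study call a gene by variance analysis, a Tukey p and a 2-fold difference of the means. By that criterion 1 probe was lower and 1 higher in Group M vs Group C (0.962% and 1.37% of all probes), 1 and 1 in Group D vs Group M (1.51% and 1.14%), and 0 in Group D vs Group C (0.165% and 0.201%). Besides Mrps10 the criterion took the second probe of Mrpl30, which was well above background on 2 of the 12 arrays and on none of Group M.

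The size of the difference varied by class. In Group M vs Group C the median difference over the genes of a class, 1 probe for each gene, was -0.42 for complex II (4 genes), -0.29 for complex III (6), -0.24 for complex I (39), -0.22 for complex IV (17) and -0.20 for complex V (18). It was -0.11 for the small ribosomal subunit (28 genes), -0.10 for the large subunit (45) and 0.34 for the assembly factors of complex I (4), beside -0.0145 over all probes. Genes lay below 0 in 4 of 4, 6 of 6, 36 of 39, 15 of 17 and 18 of 18 cases in complexes II, III, I, IV and V, and in 20 of 28 and 34 of 45 cases in the ribosomal subunits. The order of the medians was not tested, as genes of a complex share rats and are no replicates. Each class other than the assembly factors stayed below 0 in Group M vs Group C over 21 other settings, with -0.51 to -0.34 for complex II and -0.15 to -0.069 for the small ribosomal subunit.

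**Figure D2:**
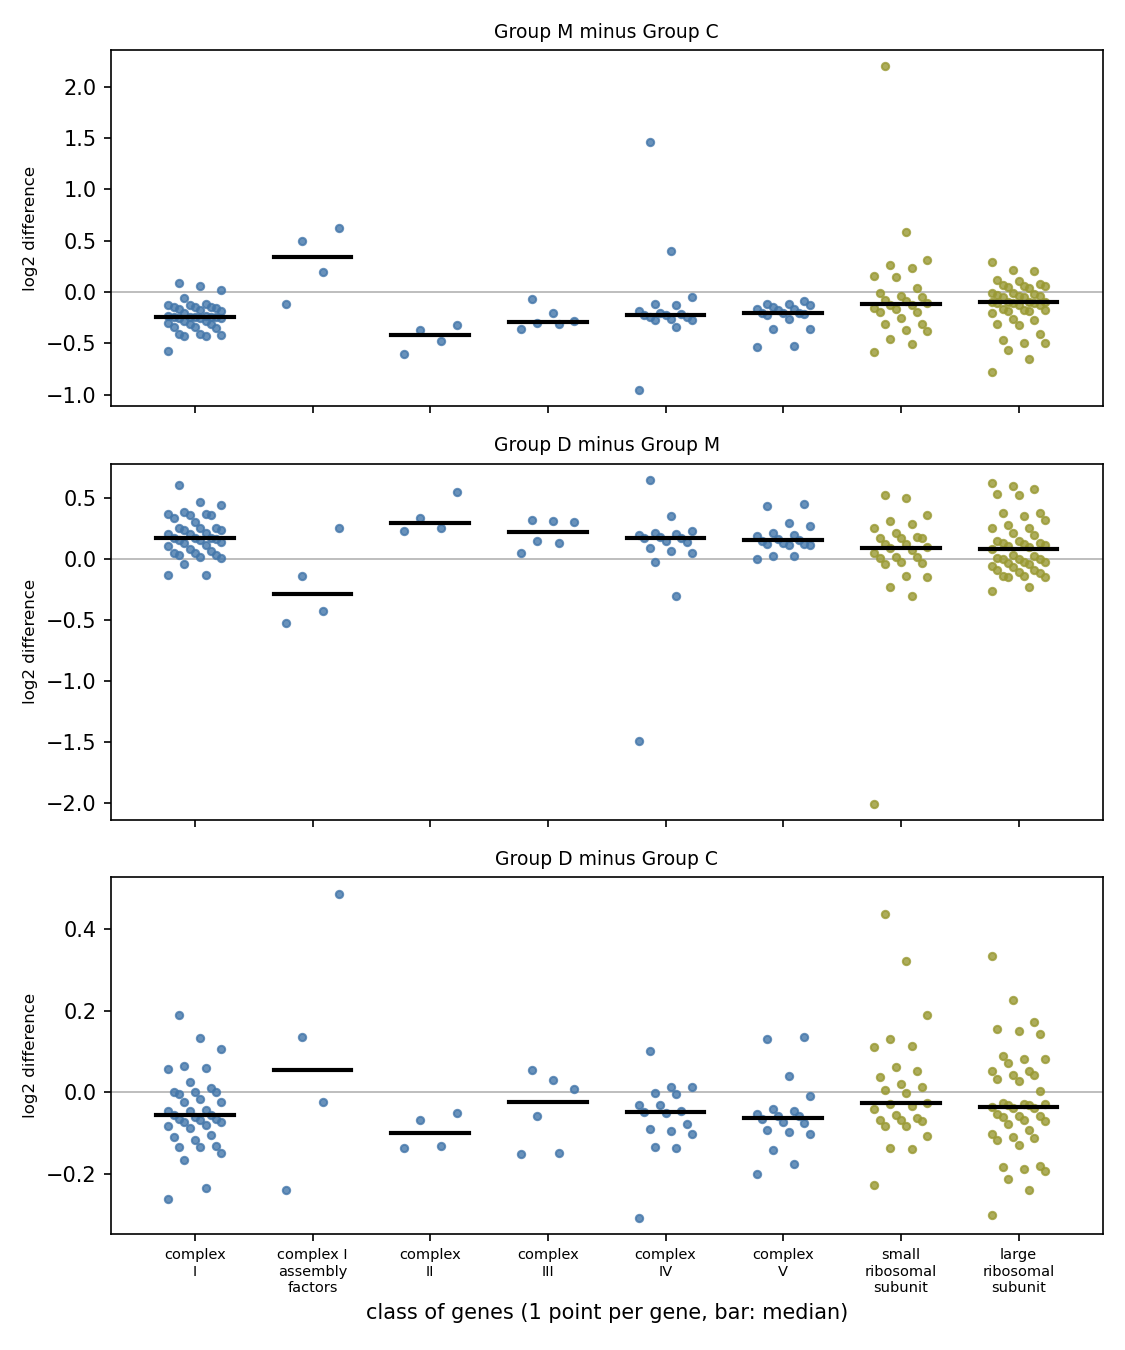
Log2 difference of each gene by class in Group M minus Group C (top), Group D minus Group M (middle) and Group D minus Group C (bottom), 1 point per gene and a bar at the class median. The medians of complexes I to V lie between -0.42 and -0.20 in the top panel and between 0.15 and 0.30 in the middle panel, those of the ribosomal subunits nearer to 0, and the point at 2.20 and at -2.01 in the small ribosomal subunit is Mrps10.

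Complex II, succinate dehydrogenase, had the lowest median of all classes, and each of its 4 genes was lower in Group M at a raw p of at most 0.05 by limma, as were 12.9% of all probes. With D12 in the model 2 of them passed, and Sdhb and Sdhc had a raw p of 0.0593 and 0.053 by limma. Sdha, the flavoprotein that oxidizes succinate, read 3.77, 3.42, 3.91 and 3.79 in Group C, 3.25, 3.56, 2.96 and 3.21 in Group M, and 3.496, 3.70 and 3.56 in Group D, with 3.06 in D12. Only M6 of the Group M rats lay within the range of Group C. The difference of Group M and Group C was -0.48 (SE 0.14, 0.718-fold, unadjusted p = 0.00797 and adjusted p = 0.118 by limma).

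Sdhd, a membrane anchor of the complex, read 4.02, 3.57, 4.18 and 3.88 in Group C, 3.31, 3.73, 2.91 and 3.30 in Group M, and 3.80, 3.94 and 3.85 in Group D, with 3.14 in D12. It had the largest difference of the 4, -0.60 (SE 0.18, adjusted p = 0.115 by limma), again with M6 alone inside the range of Group C. In Group D vs Group M its difference was 0.55 (SE 0.19, unadjusted p = 0.0162 and adjusted p = 0.148 by limma), with each of the 3 rats above each Group M rat, whereas D12 lay among Group M. Sdhc, the other membrane anchor, read 2.64, 2.19, 2.46 and 2.27 in Group C and 2.04, 2.26, 1.79 and 2.01 in Group M. Its difference was -0.37 (SE 0.13, unadjusted p = 0.0199 by limma), and Group D lay at 2.37, 2.29 and 2.11, with D12 at 1.66. For Sdhb, the iron-sulphur subunit, the values were 2.99, 2.67, 3.15 and 2.96 in Group C and 2.52, 2.86, 2.46 and 2.64 in Group M, a difference of -0.32 (SE 0.13, unadjusted p = 0.0333 by limma). In Group D vs Group C the 4 genes differed by -0.14 to -0.050, each by less than its SE of 0.14 to 0.19.

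The promoters of these 4 genes are shown because the genes differed together and because they carry different motifs of the factors named above. Each sequence holds the 250 bases before the start of the gene (RefSeq, build GRCr8, 5' to 3' on the strand of the gene), and capitals mark the NRF-1 core GCGCANGC and the GABP core CCGGAAG on either strand.
Sdha, chr1:30764303-30764552, plus strand: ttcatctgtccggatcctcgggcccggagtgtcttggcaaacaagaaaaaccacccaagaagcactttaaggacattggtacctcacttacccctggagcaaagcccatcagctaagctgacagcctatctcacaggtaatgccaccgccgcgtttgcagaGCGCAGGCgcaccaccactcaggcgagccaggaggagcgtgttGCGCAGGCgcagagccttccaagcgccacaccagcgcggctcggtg
Sdhb, chr5:158547684-158547933, plus strand: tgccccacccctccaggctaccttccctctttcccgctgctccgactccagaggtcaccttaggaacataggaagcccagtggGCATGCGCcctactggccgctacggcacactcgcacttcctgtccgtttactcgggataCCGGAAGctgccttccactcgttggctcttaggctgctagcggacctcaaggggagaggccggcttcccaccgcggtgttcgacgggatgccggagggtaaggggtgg
Sdhc, chr13:86098026-86098275, minus strand: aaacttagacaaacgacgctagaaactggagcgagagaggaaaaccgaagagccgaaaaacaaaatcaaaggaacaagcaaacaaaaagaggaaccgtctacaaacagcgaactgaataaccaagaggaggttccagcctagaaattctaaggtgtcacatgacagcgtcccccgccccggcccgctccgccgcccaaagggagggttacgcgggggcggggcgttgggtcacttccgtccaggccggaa
Sdhd, chr8:59850642-59850891, minus strand: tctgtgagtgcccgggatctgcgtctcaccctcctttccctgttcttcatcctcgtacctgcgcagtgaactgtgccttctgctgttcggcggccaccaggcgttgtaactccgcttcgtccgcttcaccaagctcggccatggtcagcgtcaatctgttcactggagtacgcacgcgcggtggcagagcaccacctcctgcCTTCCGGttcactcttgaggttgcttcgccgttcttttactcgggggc
Counted from the start of the gene, Sdha held the NRF-1 core at -89 and -46 and once more across the start, Sdhb held it at -167 on the other strand and the GABP core at -108, and Sdhd held the GABP core at -48 and, past the start, at 20, and the ERR core at 36, all on the other strand. Sdhc held neither in these bases, and a YY1 core, AAGATGGC, at position 4 after the start. Over all members, the windows of 300 bases from 250 before to 50 after the start held the NRF-1 core in 37 of 135 promoters (27.4%, against 8.98% of 33469 promoters in the table), the GABP core in 39 (28.9%, against 8.75%), the YY1 core in 29 (21.5%, against 3.17%) and the ERR core AAGGTCA in 13 (9.63%, against 4.61%). No occurrence overlapped one of another motif in these windows. A match is a run of letters and not a bound site. Members with and without a motif had medians in Group M vs Group C of -0.21 and -0.17 for NRF-1, -0.19 and -0.18 for GABP, -0.17 and -0.19 for YY1, and -0.15 and -0.19 for ERR.

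Complex I, which takes electrons from NADH, had 15 of its 39 genes lower in Group M than in Group C at a raw p of at most 0.05 (38.5%, beside 12.9% of all probes) and 0 higher, and in Group D vs Group M 7 higher (17.9%, beside 11.8%) and 0 lower. With D12 in the model 8 were lower in the first comparison and 2 higher in the second. Ndufs3, a core subunit of the arm that protrudes into the matrix, had the largest difference, with 2.75, 2.39, 2.81 and 2.51 in Group C and 2.14, 2.37, 1.63 and 2.01 in Group M. Every Group M rat lay below every Group C rat, and the difference was -0.58 (SE 0.16, adjusted p = 0.11 by limma). Group D read 2.41, 2.64 and 2.40, above each Group M rat, with a difference from Group M of 0.45 (SE 0.18, adjusted p = 0.18 by limma), and D12 read 1.93.

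Ndufa9, an accessory subunit, differed by -0.42 (SE 0.12, adjusted p = 0.116 by limma) in Group M vs Group C, and it had the largest difference of complex I in Group D vs Group C, -0.26 (SE 0.13, adjusted p = 0.876 by limma). Its values were 2.02, 1.66, 2.22 and 1.83 in Group C, between 1.40 and 1.66 in Group M, and 1.63, 1.75 and 1.63 in Group D, so Group D stood nearer to Group M there than for most genes of the complex. Ndufa6 differed by -0.43 (SE 0.16) and Ndufa7 by -0.41 (SE 0.15) in Group M vs Group C, both accessory subunits. Ndufa7 had the largest difference of the complex in Group D vs Group M, 0.60 (SE 0.16, adjusted p = 0.0995 by limma): it read -2.01, -1.61, -2.12 and -1.94 in Group M and -1.08, -1.44 and -1.43 in Group D, with -1.85 in D12. At the other end lay Ndufb8, with a difference of 0.086 (SE 0.12), and Ndufa4, with 0.056 (SE 0.090), each less than its SE. Ndufa4, first named as a subunit of complex I, is now known to belong to complex IV.

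On the array 4 genes are named as assembly factors of complex I, which build the complex and do not stay in it. At a raw p of at most 0.05, 2 of them were higher in Group M vs Group C (50%, beside 9.86% of all probes). None of the 4 passed the adjusted threshold. Ndufaf1 read -3.16, -3.15, -3.36 and -2.94 in Group C, -2.77, -2.73, -2.49 and -2.63 in Group M, and -3.03, -3.21 and -3.29 in Group D, with -3.11 in D12. Every Group M rat lay above all 8 other rats, and the difference was 0.50 (SE 0.11, unadjusted p = 0.00134 and adjusted p = 0.0935 by limma) from Group C and that of Group D from Group M -0.52 (SE 0.12, adjusted p = 0.0851 by limma). Among the members only Mrps10 shared this place of all Group M rats above the 8 others (0.639% of all probes had it), and only 1 probe of Ndufv3, a subunit of complex I, had all Group M rats below the 8 others (0.797%).

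Ndufaf4 was measured by 4 probes, all well above background on every array, and they agreed in sign, with differences of 0.56 to 0.69 in Group M vs Group C and unadjusted p values of 0.00941 to 0.0289 by limma. Its brightest probe read -0.65, -0.46, -0.88 and -1.25 in Group C, -0.30, -0.51, 0.19 and -0.13 in Group M, and 0.084, -0.52 and -0.53 in Group D, with 0.28, the highest value of all rats, in D12. M6 lay within Group C, and Group D stayed above Group C by 0.49 (SE 0.23, adjusted p = 0.862 by limma), near to Group M. Ndufaf3 differed by -0.12 (SE 0.12) in Group M vs Group C.

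**Figure D3:**
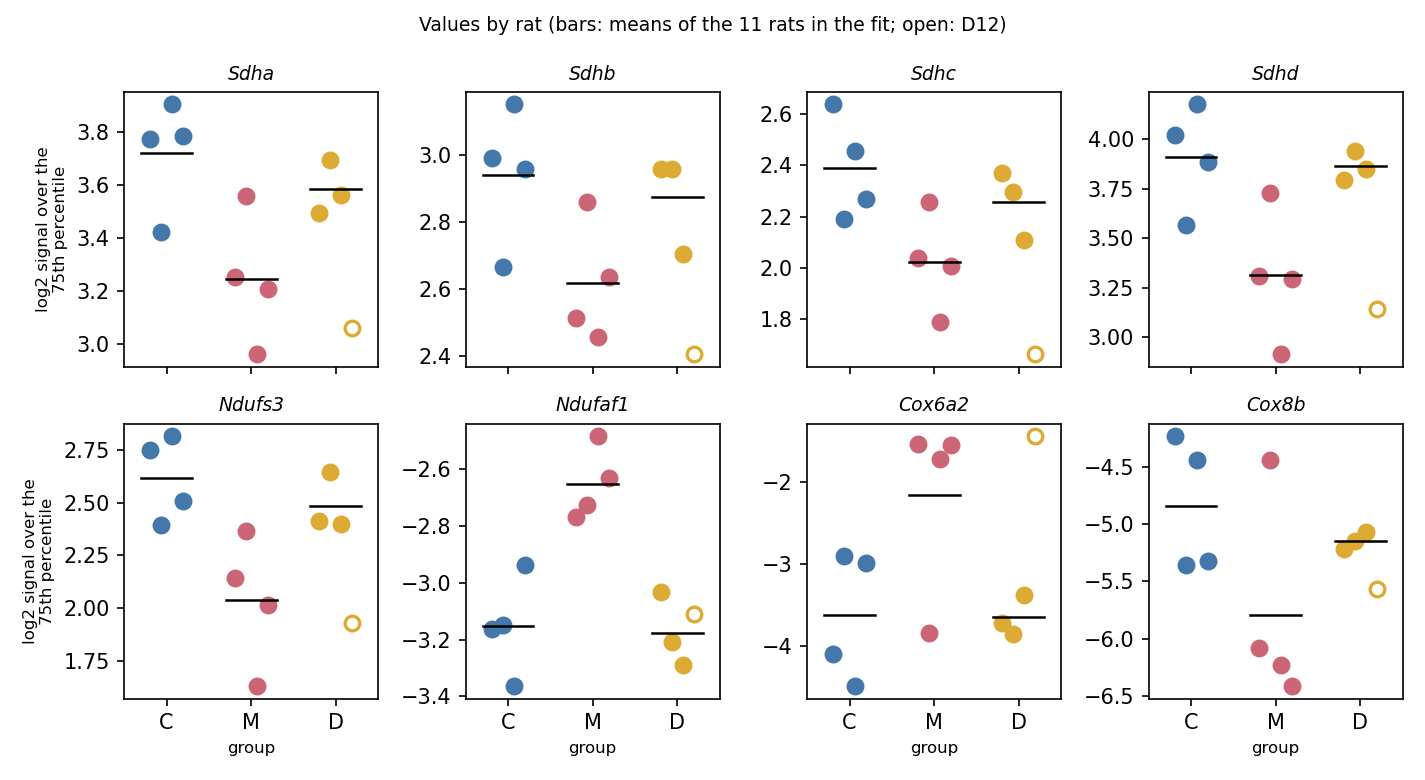
Log2 signal over the 75th percentile of the array in each rat for the 4 genes of complex II, Ndufs3, Ndufaf1, Cox6a2 and Cox8b; bars are group means over the 11 rats compared and D12 is open. Group M is lower than Group C in Ndufs3 without overlap, where D12 lies among Group M, and lower than Group C in the Sdh genes apart from M6. In Ndufaf1 Group M is higher than every other rat at -2.77 to -2.49. M6 lies apart from the other Group M rats in Cox6a2 at -3.85 and Cox8b at -4.44.

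Complex III, the cytochrome bc1 complex, had all 6 genes below 0 in Group M vs Group C and 4 of them at a raw p of at most 0.05 (66.7%, beside 12.9% of all probes), of which 2 passed with D12 in the model. Uqcrfs1, the Rieske iron-sulphur protein, differed by -0.36 (SE 0.13), Uqcrc2 by -0.31 (SE 0.13) and Uqcrc1 by -0.30 (SE 0.12), the last 2 being core proteins of the complex, with adjusted p values of 0.144, 0.186 and 0.165 by limma. Uqcrfs1 read 3.58, 3.34, 3.80 and 3.39 in Group C and 3.14, 3.42, 3.05 and 3.06 in Group M, with M6 inside Group C. In Group D vs Group M, Uqcrc2 had the largest difference, 0.32 (SE 0.14, unadjusted p = 0.0428 by limma), and its Group D values of 3.09, 3.12 and 3.04 lay among those of Group C, 3.02, 2.79, 3.26 and 3.24. D12 read 2.65, among the Group M rats at 2.63 to 3.02.

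Complex IV, cytochrome c oxidase, held the chain genes with the largest differences in either direction, which are its tissue-restricted isoforms. Cox6a2, the heart and skeletal muscle form of subunit VIa, read -4.11, -2.90, -4.50 and -2.99 in Group C, -1.53, -3.85, -1.72 and -1.54 in Group M, and -3.72, -3.86 and -3.38 in Group D, with -1.44 in D12. Group M without M6 lay above every rat of Group C, M6 lay among Group C, and D12 was the highest rat of all. The difference was 1.46 (SE 0.54, unadjusted p = 0.022 and adjusted p = 0.156 by limma) in Group M vs Group C, 2.03 without M6, and -1.495 (SE 0.59, adjusted p = 0.18 by limma) in Group D vs Group M. Its ubiquitous partner Cox6a1 was in the opposite direction, with 6.35, 6.05, 6.33 and 6.43 in Group C and 5.98, 6.19, 5.87 and 6.01 in Group M, a difference of -0.28 (SE 0.11, unadjusted p = 0.0353 by limma).

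Markers of skeletal muscle were measured beside it. Their summed level, as a multiple of the 75th percentile, was 1.02 to 1.78 in Group C, 1.18 in M6 and 1.90 to 2.47 in the other Group M rats, 1.26 to 1.48 in D9 to D11 and 1.58 in D12, and 7 of the 10 markers passed the background mark on all arrays. Of the 10 markers 4 were higher in Group M vs Group C at a raw p of at most 0.05 (40%, beside 9.86% of all probes), and none passed the adjusted threshold. Among the 4 were Acta1, skeletal actin, at 1.08 (SE 0.39), and Tnnt3, fast troponin T, at 1.01 (SE 0.27). Ckm, muscle creatine kinase, differed by 0.0093 (SE 0.24). Below 0 lay Tnni2, fast troponin I, at -0.049 (SE 0.23), and Myh2, a myosin heavy chain that was well above background on 3 arrays, at -0.94 (SE 0.70). Within Group M the 3 rats with high Cox6a2 had the high muscle sums, and D12 had the highest Cox6a2 at a muscle sum below that of C4. The rats with the highest Cox6a2, D12, M5, M8, M7 and C2, also had the highest medians of leukocyte markers. These medians were 2.88, 1.80, 1.25, 1.32 and 1.91 in that order. The part of skeletal muscle or of leukocytes in the value of Cox6a2 was not tested.

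Cox8b, the muscle form of subunit VIII, went the other way, with -4.23, -5.35, -4.44 and -5.32 in Group C, -6.09, -4.44, -6.23 and -6.42 in Group M, and -5.21, -5.15 and -5.07 in Group D, with -5.57 in D12. M6 again lay among Group C, and the other Group M rats lay below all 8 rats of the other groups. The difference was -0.96 (SE 0.42, unadjusted p = 0.0466 and adjusted p = 0.213 by limma). The 2 muscle isoforms therefore differed in opposite directions in the same rats. Cox8b passed the background mark on every array but was dim in M5, M7 and M8. A spot of another probe, that of Nlrp5, missed this mark in C4 at -6.63. Cox8a, the ubiquitous form, differed by -0.26 (SE 0.14), and Cox8c, a form known from the testis, was dim on every array.

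Of the other isoforms, Cox4i1, the common form of subunit IV, differed by -0.21 (SE 0.11) in Group M vs Group C and Cox4i2, a form known from the lung, by -0.13 (SE 0.14). Cox6b2, known from the testis, differed by -0.11 (SE 0.13), Cox7a2, the common form of subunit VIIa, by -0.19 (SE 0.11), and Cox7b by -0.27 (SE 0.12), each with a raw p above 0.05. Cox7a2l, a factor that joins complexes III and IV, differed by -0.35 (SE 0.16) in Group M vs Group C and by 0.012 (SE 0.17) in Group D vs Group C. Cox6b1, Cox7a1 and Cox7b2 were not analysed here. Cox4nb met the rule by its name but is Emc8, a subunit of a complex of the endoplasmic reticulum, in RefSeq: it was higher in Group M by 0.40 (SE 0.14, adjusted p = 0.144 by limma). Cox4nb is counted in the class all the same, as is Cox6c1, which RefSeq names Cox6c-ps1.

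All 18 genes named for complex V, the ATP synthase, lay below 0 in Group M vs Group C. At a raw p of at most 0.05, 6 of them were lower (33.3%, beside 12.9% of all probes), and 4 with D12 in the model. In Group D vs Group M all 18 lay above 0, none at that threshold. Of the catalytic subunits, Atp5a1, the alpha subunit, lay near the class median at -0.22 (SE 0.094), and Atp5b, the beta subunit, differed by -0.37 (SE 0.13). The largest differences were those of Atp5sl, -0.54 (SE 0.21), and Atp5s, -0.52 (SE 0.21). RefSeq names them Dmac2 and Dmac2l, and Dmac2 is known as an assembly factor of complex I. Both are counted among the 18 by their names on the array. Atp5sl read -0.93, -1.04, -0.65 and -0.56 in Group C, -1.20, -0.90, -1.80 and -1.44 in Group M, and -1.24, -0.72 and -0.73 in Group D. Group D overlapped both groups there. Atp5o, in the stalk of the enzyme, had the largest difference of the class in Group D vs Group C, -0.20 (SE 0.10, adjusted p = 0.868 by limma), and the same difference of -0.20 (SE 0.093) in Group M vs Group C. With 0.0029 (SE 0.10) in Group D vs Group M it was the gene of the class whose Group D mean stayed with Group M.

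The ribosomal proteins were spread on both sides of 0. Of the 28 genes of the small subunit 8 were lower (28.6%) and 3 higher (10.7%) in Group M vs Group C at a raw p of at most 0.05, and of the 45 of the large subunit 9 lower (20%) and 2 higher (4.44%), beside 12.9% and 9.86% of all probes. Mrps33 read 2.41, 2.17, 2.16 and 2.52 in Group C, 1.70, 2.04, 1.46 and 1.72 in Group M, and 1.90, 2.21 and 2.17 in Group D, with 1.65 in D12. Every Group M rat lay below every Group C rat, and the difference was -0.59 (SE 0.14, unadjusted p = 0.00206 and adjusted p = 0.0992 by limma). Mrps36 differed by -0.50 (SE 0.17). RefSeq names it Kgd4, a subunit of the oxoglutarate dehydrogenase complex of the citric acid cycle, so it is no ribosomal protein, though counted among the 28.

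In the large subunit, Mrpl18 read 2.10, 1.84, 2.06 and 2.26 in Group C, 1.31, 1.36, 1.11 and 1.87 in Group M, and 1.90, 2.21 and 1.99 in Group D, with 2.12 in D12. Here M6 lay with M5 and M7, D12 lay with Group C, and M8 alone overlapped Group C. The difference was -0.65 (SE 0.16, adjusted p = 0.1 by limma), and that of Group D from Group M 0.62 (SE 0.18, adjusted p = 0.11 by limma). The gene mrpl9 differed by -0.78 (SE 0.32), with a wide range of 3.76 to 4.95 in Group C and 2.85 to 4.17 in Group M.

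The 5 genes of the ribosome that were higher at a raw p of at most 0.05 are 6.85% of the 73, a share below the 9.86% of all probes, and those that the naming rule takes are given as values. Mrps2, a protein of the small subunit, read -3.09, -2.93, -2.76 and -2.97 in Group C, -2.53, -2.57, -1.95 and -2.35 in Group M, and -2.19, -2.70 and -2.60 in Group D, with -2.08 in D12. Groups M and D both lay above every Group C rat, by 0.58 (SE 0.16, adjusted p = 0.109 by limma) and by 0.44 (SE 0.18, unadjusted p = 0.0319 and adjusted p = 0.807 by limma). Mrpl49 differed by 0.30 (SE 0.12) and Mrpl17 by 0.22 (SE 0.082) in Group M vs Group C, the latter with every Group M rat above every Group C rat. Mrpl43, with the largest difference of the large subunit in Group D vs Group C, 0.33 (SE 0.18), was at -0.024 (SE 0.17) in Group M vs Group C.

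Counted over all 192 probes, 7 had every Group M rat below every Group C rat (5.17% of all probes had this) and 7 above (4.08%). The lower ones were probes of Ndufs3, Ndufs8, Ndufv3, Mrps9, Mrps33, Mrpl34 and the dim probe of Mrpl30, and the higher ones were Ndufaf1, Mrps2, Mrps7, Mrps10, Mrps14, Mrps18b and Mrpl17. In Group D vs Group M 7 probes had every rat lower (6.89% of all probes) and 21 every rat higher (9.07%), which with D12 became 6 (2.31%) and 4 (2.7%). The 7 lower ones were probes of Ndufaf1, Mrps10, Mrps27, Mrpl21 and Mrpl23 and both probes of Mrpl54. In Group D vs Group C the numbers were 2 lower (3.78%), Ndufs8 and Mrpl27, and 5 higher (3.82%), 1 probe each of Ndufaf4, Mrpl17, Mrpl40, Mrps2 and Mrps21, and with D12 they were 2 (2.38%) and 4 (1.93%). As shares of the 192 probes, the counts of lower probes in Group D vs Group M without D12 and in Group D vs Group C lay below these backgrounds. The other counts lay nearer to theirs.

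Mrps10, a protein of the small ribosomal subunit, was the sole member that changed at the adjusted threshold, and it rose while the median of its subunit lay below 0. It read -5.15, -5.02, -5.16 and -5.06 in Group C, -2.92, -2.98, -2.93 and -2.76 in Group M, and -4.72, -4.83 and -5.17 in Group D, with -5.37 in D12. The lowest Group M rat lay 1.74 above the nearest other rat, the widest such gap among all probes. Mrps10 rose by 2.20 in Group M vs Group C (SE 0.11, 4.59-fold, adjusted p = 5.24e-05 by limma) and fell by 2.01 in Group D vs Group M (SE 0.12, adjusted p = 0.000272 by limma). With another background correction, normexp, these differences were 1.31 and -1.20, and both passed. Group D and Group C differed by 0.19 (SE 0.12, adjusted p = 0.923 by limma).

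The array measured Mrps10 with 1 probe of 60 bases, present as 2 spots on each array, so whether another probe of the gene would agree could not be assessed. The probe lies at chr9:9077319-9077378 on the minus strand in the files' build rn4, from base 116 of the transcript, and its sequence is shown because the result rests on it.
Mrps10 probe: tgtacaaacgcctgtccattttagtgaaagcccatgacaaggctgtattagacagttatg
All 24 spots were well above background. The processed signals were 39.7 to 59.5 over the 8 spots of Group C, 206.5 to 264.8 over those of Group M and 44.1 to 67.9 over those of Group D, D12 included, so both spots of every array gave the same picture. M6, which lay with Group C in most of the chain, lay with the other Group M rats here, and D12, which lay with Group M in most of the chain, lay with Group C. The next widest gaps of all probes were those of a probe without a gene name at chr6:34914358-34914417 (1.09) and of a probe of Nlrp5 (1.05), a gene known from the oocyte. The longest run of bases that either shares with the probe of Mrps10 was 6 on the same strand and 7 on the other. Every other gene of the small subunit lay between -0.59 (Mrps33) and 0.58 (Mrps2) in Group M vs Group C.

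**Figure D4:**
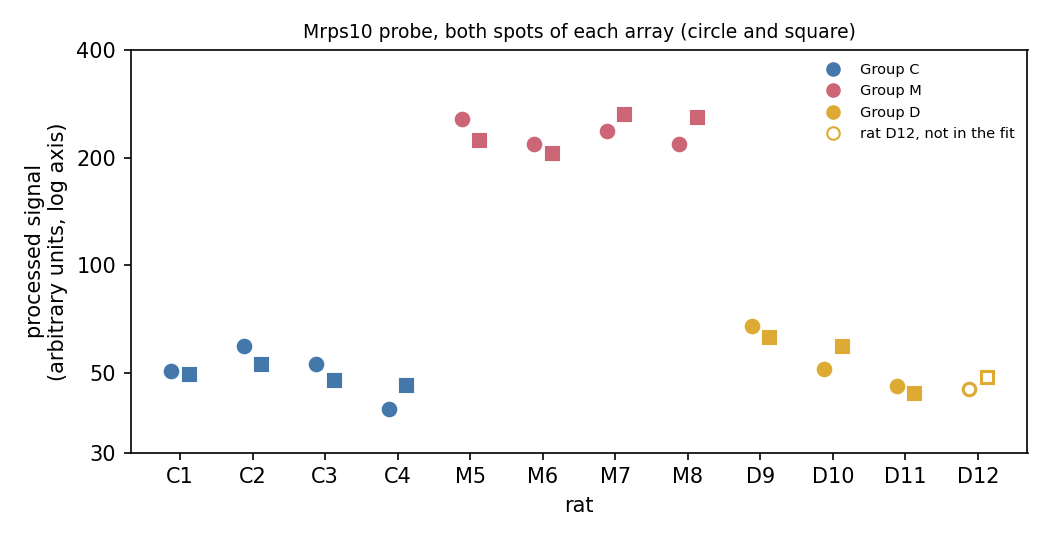
Processed signal of both spots of the Mrps10 probe on each of the 12 arrays (circle and square, logarithmic axis, arbitrary units). The spots of the 4 Group M rats lie between 206.5 and 264.8, and those of all other rats between 39.7 and 67.9.

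Among the genes with 2 or more probes well above background on every array, none had probes of opposite sign that differed by 1 or more in Group M vs Group C. The largest disagreement of such probes was that of Ndufs4, at -0.39 and -0.15. Mrpl35, with 0.056 and -0.067, had probes on both sides of 0. Larger gaps involved dim probes: Atp5d had -0.15 on its bright probe and 1.18 on the one well above background on 1 array, and Mrpl30 had -0.41 and, on the one well above background on 2 arrays, -1.03.

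In Group D vs Group M, which shares Group M with the first comparison, the medians were 0.18 for complex I, 0.30 for complex II, 0.22 for complex III, 0.17 for complex IV, 0.15 for complex V, 0.094 for the small and 0.083 for the large ribosomal subunit, beside 0.022 over all probes. With D12 added they were 0.054, 0.17, 0.15, 0.029, 0.046, 0.029 and 0.027, so the size of this difference depended on that rat. Over the 88 chain genes the median was 0.17 for 3 rats of Group D and 0.049 for 4. In Group D vs Group C the medians were -0.056 for the chain and -0.032 for the ribosome, and with D12 -0.17 and -0.085. Of the chain genes 66 lay below 0 and 22 above in that comparison, and of the ribosome genes 44 and 29. When each array was centred on its median in place of its 75th percentile, these splits became 44 and 44 and 29 and 44, and that of the ribosome in Group D vs Group M 16 below and 57 above in place of 25 and 48. The direction of Group D vs Group C is thus not set by these data.

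Genes that work with the chain were compared as lists, taken by name apart from the subunits encoded by the mitochondrial DNA. For these, the probes placed on the mitochondrial DNA were taken. Of these 12 probes, 11 lay below 0 in Group M vs Group C with a median of -0.11, but none at a raw p of at most 0.05. The subunit 2 of complex I had the largest difference of them, -0.28 (SE 0.14). Cyc1, the cytochrome c1 of complex III, differed by -0.21 (SE 0.13) and Cycs, the cytochrome c that carries electrons to complex IV, by -0.11 (SE 0.16).

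The citric acid cycle had a median below 0 as well. Of its 13 genes measured 12 lay below 0, with a median of -0.28 in Group M vs Group C (0.26 for Group D vs Group M), and 6 were lower in Group M at a raw p of at most 0.05 (46.2%, beside 12.9% of all probes). Suclg2, of the succinyl-CoA ligase, differed by -0.47 (SE 0.13) and Mdh2, the malate dehydrogenase, by -0.44 (SE 0.16) in Group M vs Group C. Cs, the citrate synthase that opens the cycle, was the exception at 0.20 (SE 0.15), which did not pass.

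Among 18 assembly factors of the chain, 16 lay below 0 in Group M vs Group C with a median of -0.20, and 6 were lower at a raw p of at most 0.05 (33.3%, beside 12.9% of all probes), a direction opposite to that of Ndufaf1 and Ndufaf4. Cox15, which makes the haem of complex IV, differed by -0.44 (SE 0.16), Surf1, another factor of complex IV, by -0.34 (SE 0.13), and Sdhaf2, which attaches flavin to Sdha, by -0.33 (SE 0.11) with every Group M rat below every Group C rat. Of 9 mitochondrial translation factors 8 lay below 0, with a median of -0.19, and Mrrf, the ribosome recycling factor, had the largest difference, -0.50 (SE 0.14). In contrast, 10 genes of mitochondrial import had a median of 0.12 and 0 passed in either direction, and 76 proteins of the cytosolic ribosome had a median of -0.042, with 1 lower and 0 higher. Among these lists no gene passed the adjusted threshold in any comparison.

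The known regulators were not of 1 sign. Ppargc1b, a coactivator of the PGC-1 family, read -0.21, -0.50, -0.071 and -0.39 in Group C, -1.27, -0.64, -1.56 and -1.45 in Group M, and -0.58, -0.18 and 0.019 in Group D, with -2.29 in D12. Every Group M rat lay below every Group C rat, D12 was the lowest of all, and the differences were -0.94 (SE 0.21, unadjusted p = 0.00116 and adjusted p = 0.0922 by limma) and, for Group D vs Group M, 0.98 (SE 0.23, adjusted p = 0.0835 by limma). Esrra, the oestrogen-related receptor alpha, read 3.53, 3.04, 3.37 and 3.36 in Group C, 2.65, 3.20, 2.39 and 2.76 in Group M, and 3.55, 3.61 and 3.45 in Group D, with 2.65 in D12. It differed by -0.58 (SE 0.17, adjusted p = 0.113 by limma) and by 0.78 (SE 0.18, adjusted p = 0.0835 by limma), with M6 within Group C. Ppargc1a differed by -0.68 (SE 0.28) and Tfam, which packs and transcribes the mitochondrial DNA, by -0.27 (SE 0.11) in Group M vs Group C.

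On the other side, Pprc1, another coactivator of the PGC-1 family, read -1.03, -0.65, -1.40 and -1.67 in Group C, -0.30, -0.52, 0.57 and 0.17 in Group M, and -0.078, -0.82 and -0.65 in Group D, with 0.53 in D12. Every Group M rat lay above every Group C rat, by 1.17 on average (SE 0.29, adjusted p = 0.0997 by limma). The mean of D9 to D11 lay between those of the 2 groups, with D9 above M5 and M6 and D10 below C2. Nrf1, the gene of the factor NRF-1, differed by 0.36 (SE 0.099, adjusted p = 0.109 by limma), with Groups M and D both above every Group C rat. Gabpa and Yy1 differed by -0.12 (SE 0.093) and -0.072 (SE 0.083). Of the 14 regulators 4 were lower (28.6%, beside 12.9% of all probes) and 2 higher (14.3%, beside 9.86%) in Group M at a raw p of at most 0.05, the 6 named with an SE in these paragraphs other than Gabpa and Yy1, and none passed the adjusted threshold.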

How the data were processed

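Colonic RNA of 12 rats was labelled with Cy3 and hybridised to Agilent whole-genome arrays of 1 colour, 1 rat per array. Per the file headers, the spot intensities were extracted, background-subtracted and detrended by Feature Extraction 10.5.1.1, with probe coordinates of build rn4. The authors also deposited a matrix of log2 values, quantile normalized, which served as an alternative only.

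From the deposited intensities, control spots and outlier spots were left out, spots of a probe were averaged, and the log2 signal was taken relative to the 75th percentile of each array. A probe was called well above background on an array where at least 0.5 of its spots bore that mark. Groups C, M and D were compared in 1 model over 11 arrays with limma 3.58.1 in R 4.3.3 (with the package data.table, version 1.17.8), with Benjamini-Hochberg adjustment over 30367 probes. The code was tested on simulated data. Rat D12 was left out, as the lanes shown in the study's methods and figures hold D9 to D11, and was added back as an alternative. All columns of per-sample values were mapped to a rat.

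Each gene stands for its probe of highest mean signal. Named are the members past the adjusted threshold, in each class the 2 genes with the largest difference in each direction in Group M vs Group C and the 1 with the largest difference in the other comparisons, the 4 Sdh genes, the tissue-restricted isoforms of complex IV with their partners, and Mrps10. The members and lists were chosen with earlier results of these data known. The lists were assembly factors, citric acid cycle, translation factors, regulators, import, cytosolic ribosome, mitochondrially encoded subunits, cytochrome c, and markers of epithelium, smooth muscle, skeletal muscle, leukocytes, endothelium, fibroblasts, enteric neurons and glia, fat and blood cells. Promoters and names come from RefSeq (GRCr8), where all 161 genes matched, 145 by accession, 14 by symbol and 2 by synonym. Alternatives were other samples, background correction, normalization, centring, filters, spots, probes, weights, the replicate number as a block, the methods' criterion, and each rat left out. The number of arrays limits the precision.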

Additional observations from a re-analysis of the deposited data

Results flagged for a closer look

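Among 153 groups of 4 rats checked, 7 held a rat far from the other 3, where chance gives about 1 in 20. The number of flags is thus near that of chance. Flags of the same rat are not separate, as the median over all members includes the chain and ribosome genes. In Group C, rat C2 lay apart with 5.36 in Cox8a (the others at 5.75 to 5.82), and with a median of -0.20 over the chain genes (the others at 0.052 to 0.093), -0.12 over the ribosome genes (0.012 to 0.033) and -0.17 over all members (0.045 to 0.073). In Group M, rat M6 lay apart with -4.44 in Cox8b (the others at -6.42 to -6.09) and with -3.85 in Cox6a2 (the others at -1.72 to -1.53). Rat M7 lay apart with 0.32 in Cox4i2 (the others at 0.64 to 0.67). C2 had the highest leukocyte median of Group C and M6 the lowest of Group M, and the part of this in their values was not tested.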

How the results depend on the processing

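Mrps10 passed the adjusted threshold both for Group M vs Group C and for Group D vs Group M under 21 settings, with differences of 1.31 to 2.29 and -2.13 to -1.20 and adjusted p values by limma of at most 0.00675 and 0.0305. Other counts depended on the processing, and the cause was not tested. With all 12 arrays, Group D vs Group M had 13 members at a raw p of at most 0.05 and a chain median of 0.0486, and Group D vs Group C had 11 members. Normexp background correction gave 2 adjusted calls in Group D vs Group M and 8 raw ones in Group D vs Group C, where quantile normalization and the authors' matrix gave 9 each. Median centring gave 57 raw calls in Group D vs Group M. Array quality weights gave 82 adjusted and 119 raw calls in Group M vs Group C. For Group D vs Group M they gave 38 and 74, and 10 raw in Group D vs Group C. The methods' criterion gave 2, 2 and 0. The replicate numbers did not pair the rats (correlations of same-numbered deviations from -0.56 to 0.13), and with the replicate block the raw calls were 41, 19 and 2. Leaving out 1 rat gave 1 to 41 adjusted and 33 to 105 raw calls in Group M vs Group C, 1 to 19 and 17 to 68 in Group D vs Group M, and 0 and 1 to 9 in Group D vs Group C. The chain median then lay at -0.31 to -0.18, 0.12 to 0.22 and -0.13 to -0.0093 in these comparisons. Of 40 named genes, none reversed beyond its own SE. Over 21 settings, though, the sign changed in 6 of 839 values in Group M vs Group C. It changed in 20 of 839 in Group D vs Group M and in 80 of 839 in Group D vs Group C. In the first 2 comparisons 47 and 20 values newly passed the adjusted threshold, all with array quality weights or without M6.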

Other observations

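Markers of other cell types had the following medians of the log2 difference first for Group M vs Group C, then for Group D vs Group M. Epithelium (12 genes) stood at 0.028 and 0.13, smooth muscle (8) at 0.15 and 0.019, and skeletal muscle (10) at 0.30 and -0.24. Leukocytes (9) stood at 0.89 and -1.25. At a raw p of at most 0.05 by limma, 1 gene was higher in the first comparison (11.1%, beside 9.86% of all probes). In the second comparison 6 were lower (66.7%, beside 9.85% of all probes). With D12 in the model the second median was -0.45 with 0 lower, and that of Group D vs Group C was 0.31 in place of -0.39. Endothelium (5) stood at 0.013 and -0.21, fibroblasts (6) at 0.11 and -0.15, and enteric neurons and glia (9) at -0.059 and 0.34. Fat (5) stood at -0.23 and -0.54, and blood cells (3) at 0.54 and -0.52. No gene of these lists passed the adjusted threshold.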
